A study of Mus musculus with 6 samples.

Results

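The 10 genes described here encode ligands and cytokines through which antigen-presenting cells instruct T cells. They were chosen by name, as Cd80, Cd86, Cd40, Cd83, Icosl, Cd274, Pdcd1lg2, Il12b, Il15 and Il10, from the 32287 features of the gene matrix. All 10 passed the filter on low counts. In the mouse build GRCm38 the genes of CD80 (chr16:38455561-38496335, plus strand) and CD86 (chr16:36603869-36666081, minus strand) share a chromosome, and those of PD-L1, Cd274 (chr19:29367455-29388095), and PD-L2, Pdcd1lg2 (chr19:29410919-29471161), lie 22823 bases apart on the plus strand. The others are Cd40 (chr2:165055627-165072948, plus), Cd83 (chr13:43784775-43803132, plus), Icosl (chr10:78069302-78083913, plus), Il12b (chr11:44400063-44414033, plus), Il15 (chr8:82331632-82403222, minus) and Il10 (chr1:131019845-131024974, plus). Their transcripts were followed in lymph node cells gated by marker genes as dendritic cells, macrophages or B cells, and between unimmunized and immunized mice.

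A T cell that meets its antigen also reads a second set of signals on the presenting cell. CD80 and CD86 bind the activating receptor CD28 and the inhibitory receptor CTLA-4, and ICOS ligand binds ICOS, a receptor of follicular helper T cells. PD-L1 and PD-L2, encoded by Cd274 and Pdcd1lg2, bind the inhibitory receptor PD-1, and interleukins complete the instruction. Dendritic cells that leave a tissue with the chemokine receptor CCR7 are known to mature on the way to the node and to raise many of these molecules, whereas macrophages of the sinuses are better known for capturing particles from lymph.

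Inguinal lymph nodes came from CD169Tom mice (Cd169Cre/+ with a floxed-stop tdTomato, C57BL/6J background, over 6 weeks old), of which 2 were unimmunized and 2 were immunized with hen egg lysozyme and analysed on day 9. The methods also describe a conjugate of this antigen given in adjuvant after transfer of antigen-specific B and T cells, and whether these mice received it was not settled from the sources used here. All 4 mice carried the reporter, which marks every cell in which Siglec1 was ever switched on and the progeny of such cells. Cells were stained with antibodies, including 1 hashtag per mouse, sorted as live CD11b+ TOM+ cells, pooled and run as 2 captures of CITE-seq, which counts transcripts and DNA-tagged antibodies on the same cell. No antibody of the panel bound a product of these 10 genes, so the values below are transcripts only.

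Of 18662 barcodes, 1242 were left out because their 621 sequences occurred in both captures, and 12139 cells were kept after all filters, with 2828 and 537 from the unimmunized and 4052 and 4722 from the immunized mice. Median UMIs per cell were 5877 and 6280 in unimmunized and 9674 and 12727 in immunized mice. The gates placed 760 cells in 4 dendritic classes, 2363 in 3 macrophage classes and 297 in a B cell-like class. Monocytes, T cells, NK cells and neutrophils were gated beside them, and 3491 cells (28.8%) met no gate. B cells are not a CD11b+ population as a rule, and the B cell-like cells held 14.2 CPM of Itgam, which encodes CD11b, and 5.51 CPM of Siglec1. Siglec1, whose promoter drives the Cre, was 31.1 CPM in MSM-like, 22.2 CPM in C1q and 53.1 CPM in inflammatory macrophages and 2.09 CPM in migratory DCs.

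Each class was named from markers that include none of the 10 genes. Migratory DC-like cells (261 cells) carried Ccr7 with other markers such as Fscn1 and Ccl22, cDC1-like cells (144 cells) Xcr1, cDC2-like cells (297 cells) Flt3 or Zbtb46, and moDC-like cells (58 cells) Cd209a without those. Macrophages were MSM-like with Marco or Cd209b (379 cells), C1q macrophage-like (1520 cells) or inflammatory macrophage-like with Nos2 or Acod1 (464 cells). Every class had markers of its own among its 10 genes of highest fold, which follows from the gating and is no check of the names. In moDC-like cells these were 3 of the 10, of which 2 are also on the cDC2-like list. The CD11c antibody, which the gates did not use, averaged a centred log ratio of 1.59 to 2.41 over the libraries of the 4 dendritic classes. It averaged -0.303 to 1.62 over those of the macrophage and B cell-like classes. Medullary sinus macrophages were shallow, with a median of 2010 UMIs per cell against 12840 in C1q macrophages, and 447 of the 464 inflammatory macrophages came from immunized mouse 2. In migratory DCs the summed T cell list was 14.0 CPM, the B cell list 10.8 CPM and the classical monocyte list 199.5 CPM (3196 CPM in classical monocytes). The C1q macrophage list was 78.5 CPM there (6703 CPM in C1q macrophages). Cells with UMIs of C1qa, C1qb and C1qc together could not be gated as dendritic, so this low value follows in part from the gate. C1q macrophages held 302.7 CPM of the migratory DC list (9219 CPM in migratory DCs).

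Counts were summed per mouse and class, giving 49 libraries of at least 10 cells, and a level below is the UMIs of a gene per 1000000 UMIs (CPM) of such a library. Values are given as mean ± SD over mice. The comparisons below share libraries and are not independent of each other. Classes were compared with the quasi-likelihood test of edgeR on the counts, with Benjamini-Hochberg adjustment over all 11116 genes tested and a threshold of 0.05. Of the libraries, moDC-like cells gave 2, 1 per condition, and inflammatory macrophages gave 2, both from immunized mice.

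The 10 genes fell into a few patterns across the classes. Cd40, Cd83, Icosl and Il15 were highest in migratory DCs, with no overlap between the mice of that class and those of any other class. Cd274 was highest in inflammatory macrophages and Cd86 in cDC1-like cells. Cd80 and Pdcd1lg2 overlapped between most myeloid classes, and Il12b and Il10 were rare transcripts in a handful of cells.

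**Figure D1:**
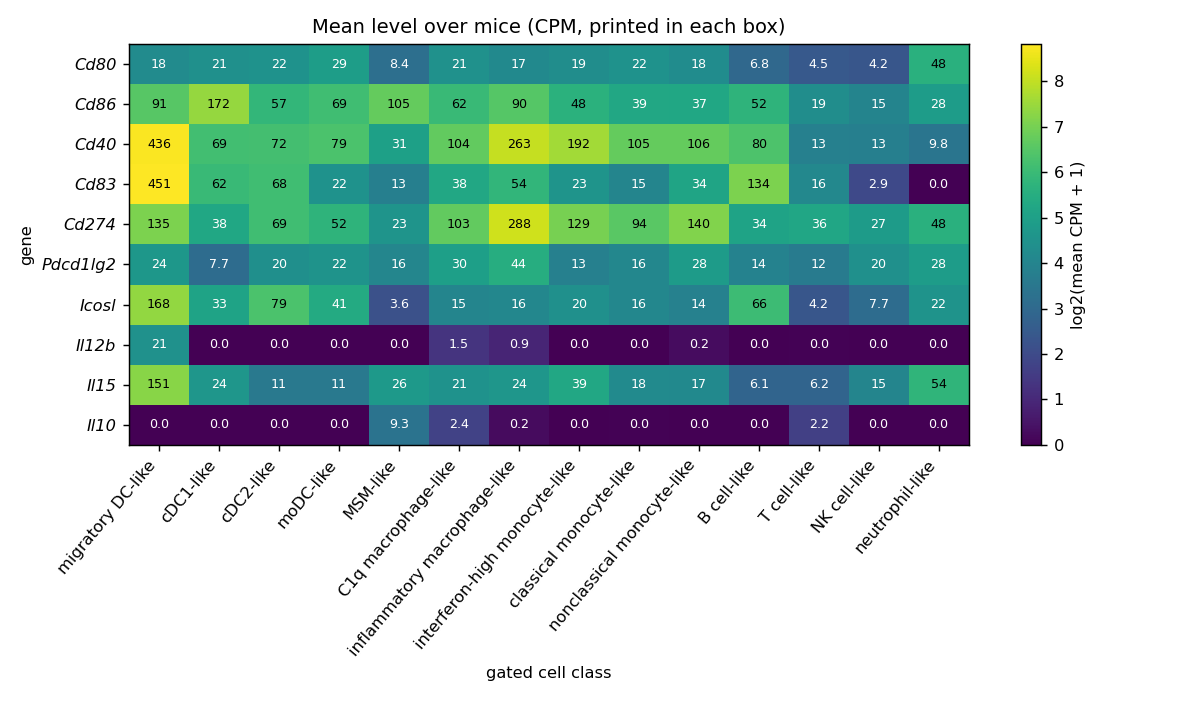
Mean level of each of the 10 genes (rows) in 14 gated cell classes (columns), as CPM printed in each box, averaged over the mice with a library. Colour is log2(mean CPM + 1). Migratory DC-like cells held the highest mean of Cd40, Cd83, Icosl, Il15 and Il12b, and inflammatory macrophage-like cells that of Cd274 and Pdcd1lg2.

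CD40 is the receptor through which a helper T cell licenses a dendritic cell, activates a macrophage and supports a B cell. Cd40 in migratory DCs was 433.1 and 515.7 CPM in unimmunized and 444.4 and 350.8 CPM in immunized mice (436.0 ± 67.6, n = 4). Inflammatory macrophages came next, at 315.7 and 209.9 CPM, and interferon-high monocytes followed at 165.3 to 206.8 CPM. These 3 classes did not overlap each other. C1q macrophages held 78.8 to 122.2 CPM, cDC2-like cells 49.6 to 93.6 CPM and B cell-like cells 58.9 to 98.6 CPM, ranges that overlapped, and medullary sinus macrophages held 20.6 to 39.4 CPM.

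CD83 is a surface protein of mature dendritic cells and activated B cells that keeps MHC class II and CD86 at the surface. Cd83 was 582.4 and 468.9 CPM in migratory DCs of the unimmunized and 370.4 and 383.5 CPM in immunized mice (451.3 ± 97.7, n = 4). B cell-like cells were second, at 170.3 and 116.1 CPM in unimmunized and 173.2 and 75.4 CPM in immunized mice. They overlapped cDC2-like cells (37.2 to 93 CPM) and cDC1-like cells (15.7 to 111.2 CPM). Macrophages lay lower, with 16.4 to 73.4 CPM in C1q macrophages and 0 to 38.9 CPM in medullary sinus macrophages, whose highest value was 1 UMI in a library of 11 cells.

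Icosl followed the same order of lineages. Migratory DCs held 116.0 and 206.3 CPM in unimmunized and 211.5 and 139.6 CPM in immunized mice (168.3 ± 47.9, n = 4), above every other library. cDC2-like cells (34.7 to 99.2 CPM) and B cell-like cells (36.4 to 98.6 CPM) overlapped almost fully. The 3 macrophage classes together ranged from 0 to 23.2 CPM, below every dendritic and B cell-like library. Within the B cell-like class the unimmunized mice (98.6 and 81.2 CPM) lay above the immunized mice (46.6 and 36.4 CPM), a difference that did not pass the test (log2 fold change -0.87, 95% interval -1.83 to 0.08, edgeR adjusted p = 0.729).

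IL-15 is carried to NK cells and CD8 T cells on the surface of the cell that makes it, bound to its own receptor chain. Il15 in migratory DCs was 109.3 and 178.2 CPM in unimmunized and 189.3 and 127.0 CPM in immunized mice (150.9 ± 38.8, n = 4). The next class was neutrophil-like, at 48.7 and 59.0 CPM, from 7 UMIs in 2 libraries. All other classes stayed at or below 40.7 CPM, and B cell-like cells held 0 to 15.6 CPM.

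PD-L1 was found at some level in every lineage. Cd274 reached 297.1 and 280.0 CPM in inflammatory macrophages of the immunized mice (288.5 ± 12.1, n = 2), apart from every other class. Nonclassical monocytes (127.2 to 146.8 CPM), migratory DCs (94.6 and 121.9 CPM unimmunized, 169.6 and 152.2 CPM immunized), interferon-high monocytes and C1q macrophages (77.7 to 141.3 CPM) overlapped one another. B cell-like cells held 17.9 to 23.2 CPM in 3 mice and 75.4 CPM in immunized mouse 2, and medullary sinus macrophages held 44.3 and 46.4 CPM in the larger libraries and 0 in those of 17 and 11 cells.

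Of the CD28 ligands, Cd86 was highest in cDC1-like cells, the class known for cross-presentation, at 144.0 and 206.4 CPM in unimmunized and 198.7 and 138.4 CPM in immunized mice (171.9 ± 35.7, n = 4). Medullary sinus macrophages followed at 77.3 to 155.7 CPM. The highest value, the only one to reach the cDC1-like range, came from immunized mouse 2, a library of 11 cells and 25697 UMIs. Their other libraries held 77.3 to 99.5 CPM, below every cDC1-like library. Migratory DCs, at 42.6 and 75.0 CPM in unimmunized and 142.4 and 104.4 CPM in immunized mice, spread from the level of C1q macrophages (45.9 to 86.0 CPM) to that of cDC1-like cells. Cd80 was low throughout, at 12.4 to 26.9 CPM in cDC2-like cells, 15.8 to 25.2 CPM in C1q macrophages and 0 to 13.1 CPM in B cell-like cells, and its highest mean, 47.8 CPM in neutrophil-like cells, rested on 6 UMIs.

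PD-L2 has a narrower known distribution than PD-L1. Pdcd1lg2 was 27.9 and 59.5 CPM in inflammatory macrophages and 12.6 to 55.6 CPM in C1q macrophages, where the 2 extremes were the 2 immunized mice. In migratory DCs it was 18.7 and 9.4 CPM in unimmunized and 34.6 and 34.0 CPM in immunized mice. The 3 classes overlapped.

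**Figure D2:**
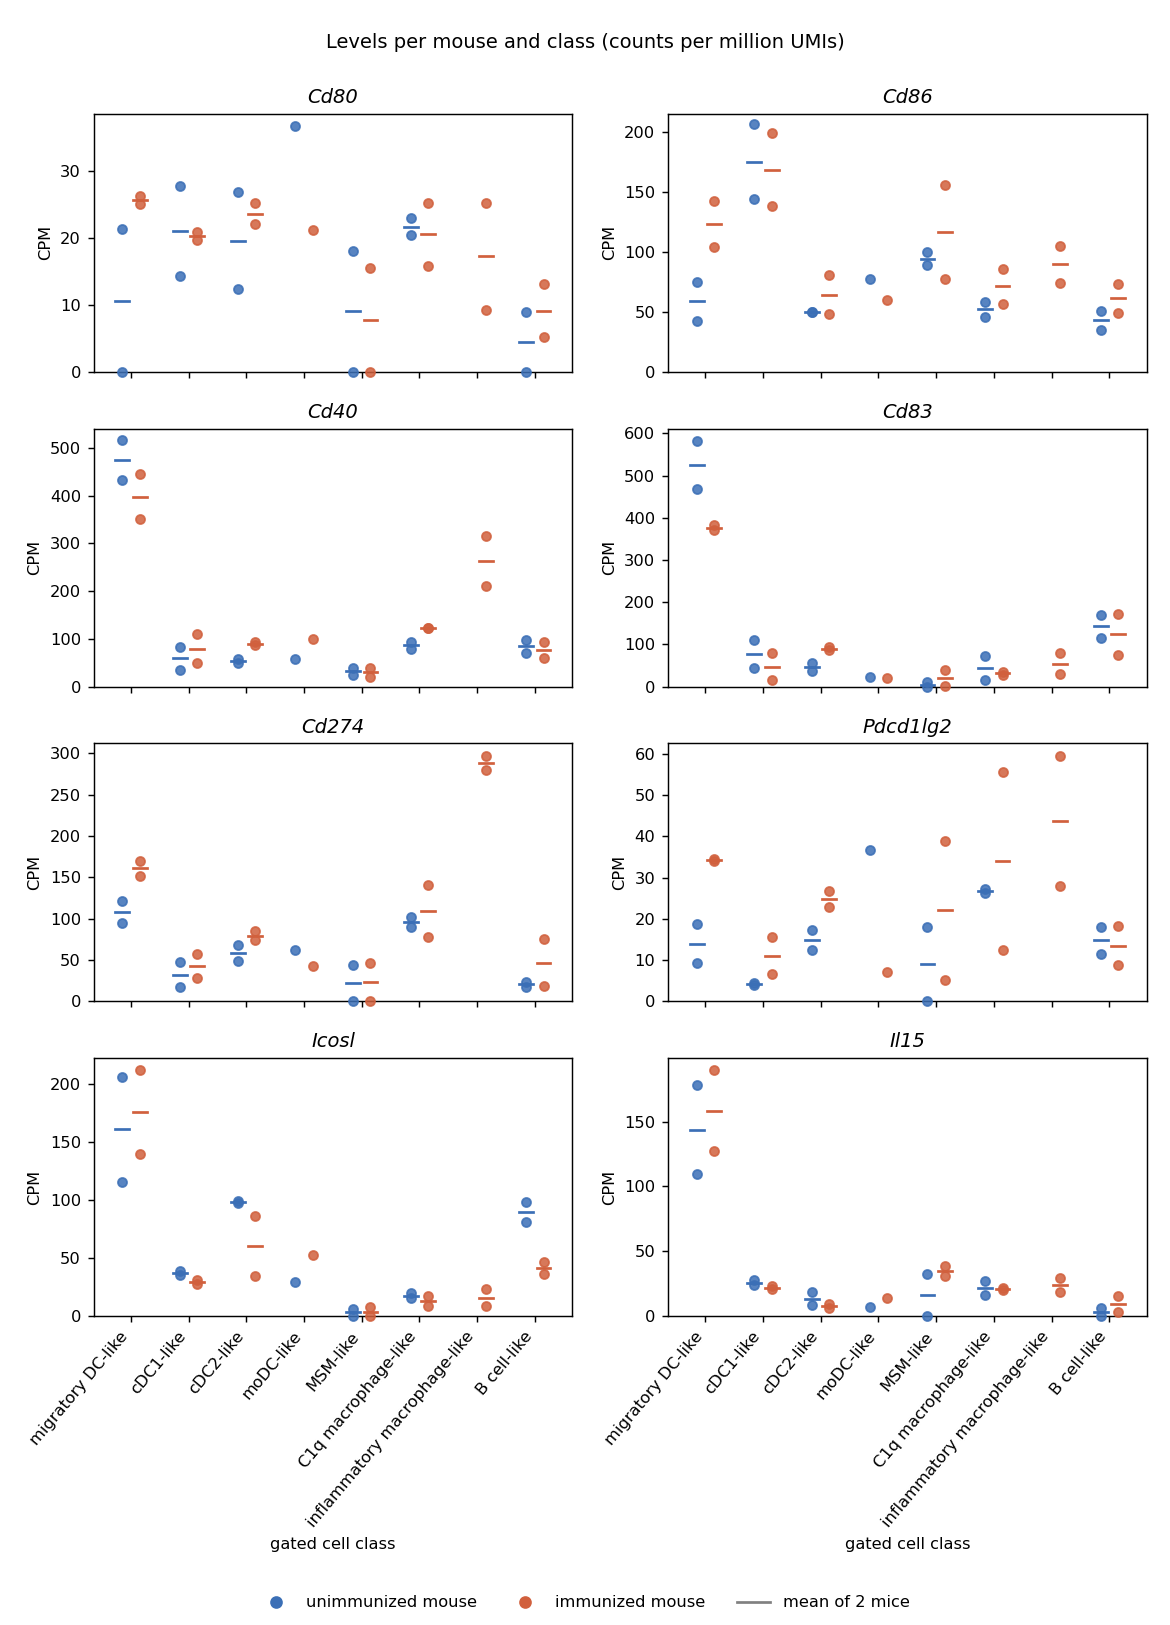
Level (CPM, linear axis from 0) of 8 of the 10 genes in the dendritic, macrophage and B cell-like classes. Each point is 1 mouse, blue unimmunized and orange immunized, and a short line is the mean of 2 mice. The migratory DC-like points of Cd40, Cd83, Icosl and Il15 lie above all other points, as do the inflammatory macrophage-like points of Cd274, whereas the points of Cd80 and Pdcd1lg2 overlap between classes.

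Dendritic classes were then compared with macrophage classes. Within each condition a lineage was the equal-weight mean of its classes with a library, and the conditions were weighted equally. Inflammatory macrophages, without a library from unimmunized mice, entered the immunized mean only and so weighed less than the other macrophage classes. The macrophage mean was formed in the same way for the comparison with B cell-like cells. Icosl was higher in the dendritic mean by a log2 fold change of 2.77 (SE 0.30), Cd83 by 2.09 (SE 0.40) and Cd40 by 0.72 (SE 0.17), with edgeR adjusted p-values of 5.69e-09, 8.59e-05 and 0.00159. Single classes differed in Cd40. Its mean was 436.0 CPM in migratory DCs, but 69.4, 71.7 and 78.9 CPM in cDC1-like, cDC2-like and moDC-like cells. Macrophage means were 104.2 CPM in C1q, 262.8 CPM in inflammatory and 31.0 CPM in medullary sinus macrophages. Mean Cd83 in moDC-like cells (21.6 CPM) was also below that of C1q macrophages (38.1 CPM). Il10 was lower in dendritic cells (edgeR adjusted p = 0.0109), with 0 UMIs in every dendritic library. That call held in 8 of 12 other settings and was lost when unimmunized mouse 1, immunized mouse 1 or immunized mouse 2 was left out (adjusted p = 0.239, 1 and 1). Thus 4 of the 10 genes were called, where 28.1% of all genes tested were called, a share near that of the background. Cd274 (-0.35, 95% interval -0.80 to 0.10), Cd86 (0.25, -0.12 to 0.61), Cd80 (0.36, -0.13 to 0.86) and Il15 (-0.03, -0.57 to 0.50) did not pass. Their values depended on the mice and settings, since without unimmunized mouse 1 Il15 was 2.69 and Cd274 2.10, without immunized mouse 1 Cd80 was 1.55, none of them called, and Cd274 was called lower with HTODemux (-0.89) and in capture 2 only (-0.92). The 10 genes had a median log2 fold change of 0.228 against -0.0126 over all genes. The call of Cd40 was lost when the gate asked for 1 more marker (0.22, adjusted p = 0.632).

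B cell-like cells held more Cd83 and Icosl than the mean of the macrophage classes, and less Il15 and Cd274 than that mean or the mean of the dendritic classes. Against the macrophage classes, Cd83 was higher by 2.90 (SE 0.38) and Icosl by 2.70 (SE 0.36), and Il15 was lower (-2.25, SE 0.53), as was Cd274 (-1.61, SE 0.39), with edgeR adjusted p-values of 1.03e-07, 1.6e-07, 0.000781 and 0.000993. The calls of Il15 and Cd274 were lost without unimmunized mouse 1 (Il15 adjusted p = 1, Cd274 at 0.67) and without immunized mouse 1 (Il15 adjusted p = 0.0953, Cd274 at 0.30). These 4 of 10 calls stand beside 36.6% of all genes. Against the dendritic classes, Il15 (-2.22, SE 0.56, adjusted p = 0.00261), Cd80 (-1.42, SE 0.42, adjusted p = 0.0102) and Cd274 (-1.27, SE 0.38, adjusted p = 0.0112) were lower in B cell-like cells, and 25.9% of all genes were called. These calls held in 17, 16 and 14 of 18 other settings. Il15 in cDC2-like (6.3 to 18.6 CPM) and moDC-like cells (7.35 and 14.15 CPM) overlapped B cell-like cells (0 to 15.6 CPM). Cd274 in B cell-like cells (17.9 to 75.4 CPM) overlapped cDC1-like (17.1 to 57.4 CPM), cDC2-like (48.4 to 85.1 CPM) and moDC-like cells (62.5 and 42.5 CPM). It also overlapped medullary sinus macrophages (0 to 46.4 CPM), whose mean of 22.7 CPM was below the 33.7 CPM of B cell-like cells. Cd83 was higher than in the mean of the dendritic classes (0.81, SE 0.31, edgeR adjusted p = 0.0467), a call that held in 6 of 18 other settings. Icosl did not pass (-0.06, 95% interval -0.62 to 0.49), and neither Cd40 (-0.50, adjusted p = 0.0788) nor Cd86 (-0.67, adjusted p = 0.0619) passed. In the fit that blocked on the mouse Cd86 passed (-0.65, adjusted p = 0.0412).

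**Figure D3:**
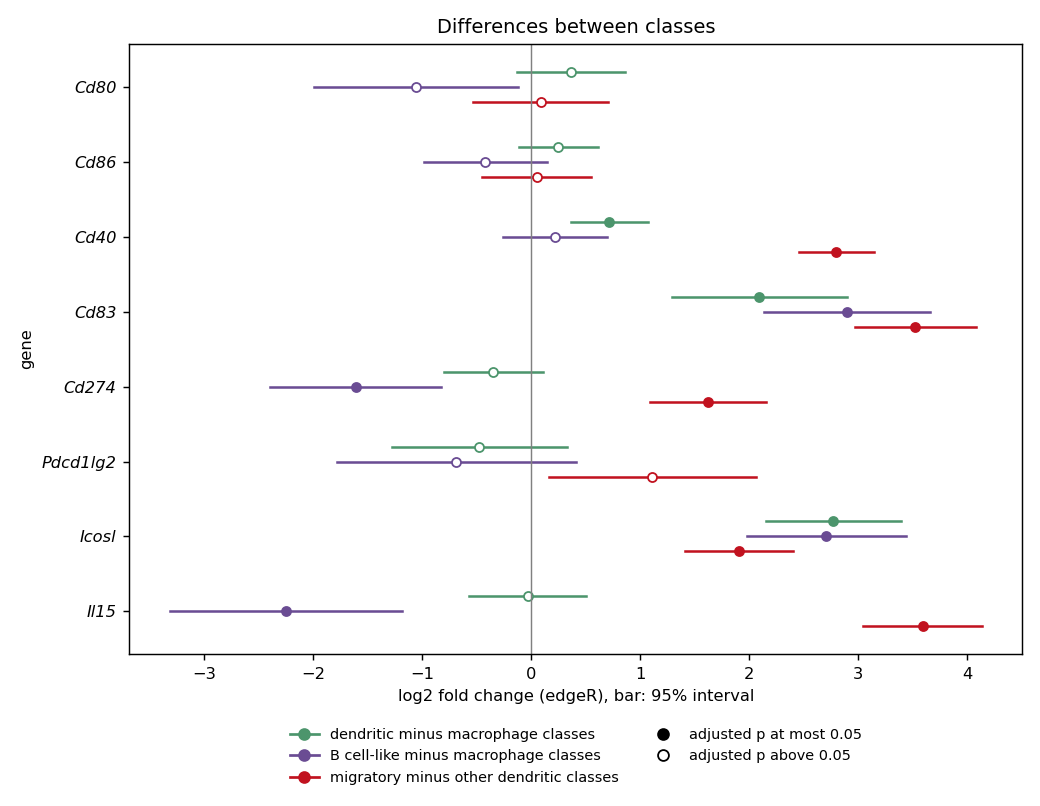
Log2 fold changes of 8 of the 10 genes (x axis, edgeR) for dendritic minus macrophage classes, B cell-like minus macrophage classes and migratory minus other dendritic classes, with 95% intervals as bars. Filled points passed an adjusted p of 0.05. Cd83 and Icosl lie above 0 in all 3 comparisons, and Il15 lies far above 0 for migratory DCs (3.59) and below 0 for B cell-like cells (-2.25).

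Within the dendritic cells the migratory class stood apart. Il15 was higher than in the mean of the cDC1-like, cDC2-like and moDC-like classes by a log2 fold change of 3.59 (SE 0.27), Cd83 by 3.52 (SE 0.27) and Cd40 by 2.80 (SE 0.17), with edgeR adjusted p-values of 1.11e-13, 2.86e-13 and 3.35e-16. Icosl was higher by 1.91 (SE 0.24, adjusted p = 5.66e-08) and Cd274 by 1.62 (SE 0.26, adjusted p = 4.39e-06). Il12b was the sixth gene called (adjusted p = 0.000206). It had 63 UMIs in migratory DCs and 0 in the other 3 classes, so its level was at least 49.4-fold higher (21.97 CPM over the class against a floor of 3 counts over the group, 0.4451 CPM). The share of all genes called was 32.1%, against 6 of these 10, and the median of the 10 was 1.76 against 0.0322 over all genes.

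The CD28 ligands were not among the genes called. Neither passed in migratory DCs against the mean of the other dendritic classes, with 0.05 for Cd86 (95% interval -0.45 to 0.55) and 0.09 for Cd80 (95% interval -0.53 to 0.71). Across the other settings Cd86 ranged from -0.70 to 0.34 and Cd80 from -3.95, without unimmunized mouse 1, to 0.70, none of them called. For Cd86 the mean of the other classes held the high cDC1-like cells (138.4 to 206.4 CPM). Migratory DCs of the immunized mice (142.4 and 104.4 CPM) lay above all cDC2-like (48.0 to 80.4 CPM) and moDC-like libraries (77.2 and 60.1 CPM). Those of the unimmunized mice (42.6 and 75.0 CPM) did not. Pdcd1lg2 was 1.11 higher (95% interval 0.16 to 2.06) and did not pass (edgeR adjusted p = 0.0679), but passed in the fit that blocked on the mouse (1.05, adjusted p = 0.0369). The calls of Cd40, Cd83, Icosl and Il15 held in all 18 other settings, that of Cd274 in 17 of 18 and that of Il12b in 16 of 17. Without unimmunized mouse 1 Cd274 was 1.39 higher with an adjusted p of 0.0635, and DESeq2 gave Il12b an adjusted p of 0.323.

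The promoters are shown because several of these genes moved together. RefSeq promoters of the mouse build GRCm38.p6, from 250 bases before to 50 after the start of transcription, matched 5 of the 10 genes, Cd80, Cd274, Pdcd1lg2, Icosl and Il12b. Those of 3 genes that were higher in migratory DCs and of the neighbour of Cd274 are printed 5′ to 3′ on the strand of the gene. Capitals mark matches, on either strand, to a kB-type motif (GGG, any 5 bases, CC) bound by NF-kB family proteins or to a PU.1-type motif (GAGGAA). Matches of the motifs did not overlap each other.
Icosl, chr10:78069118-78069417, plus strand: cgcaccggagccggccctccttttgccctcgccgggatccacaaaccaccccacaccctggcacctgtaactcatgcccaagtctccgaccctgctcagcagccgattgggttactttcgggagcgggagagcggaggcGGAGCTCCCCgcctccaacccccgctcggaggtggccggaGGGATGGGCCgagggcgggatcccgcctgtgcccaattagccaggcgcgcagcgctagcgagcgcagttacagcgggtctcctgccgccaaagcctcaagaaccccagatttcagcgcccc
Il12b, chr11:44399813-44400112, plus strand: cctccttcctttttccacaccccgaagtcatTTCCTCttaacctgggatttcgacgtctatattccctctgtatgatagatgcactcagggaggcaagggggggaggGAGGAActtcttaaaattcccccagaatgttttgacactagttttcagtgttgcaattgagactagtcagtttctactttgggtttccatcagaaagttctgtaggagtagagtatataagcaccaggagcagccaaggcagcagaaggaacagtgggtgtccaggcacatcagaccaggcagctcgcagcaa
Cd274, chr19:29367188-29367487, plus strand: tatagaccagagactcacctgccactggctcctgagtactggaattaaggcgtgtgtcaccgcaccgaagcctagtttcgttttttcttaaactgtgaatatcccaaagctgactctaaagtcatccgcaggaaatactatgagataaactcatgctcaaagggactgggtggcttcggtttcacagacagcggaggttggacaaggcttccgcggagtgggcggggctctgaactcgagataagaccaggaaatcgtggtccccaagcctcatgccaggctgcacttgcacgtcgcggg
Pdcd1lg2, chr19:29410669-29410968, plus strand: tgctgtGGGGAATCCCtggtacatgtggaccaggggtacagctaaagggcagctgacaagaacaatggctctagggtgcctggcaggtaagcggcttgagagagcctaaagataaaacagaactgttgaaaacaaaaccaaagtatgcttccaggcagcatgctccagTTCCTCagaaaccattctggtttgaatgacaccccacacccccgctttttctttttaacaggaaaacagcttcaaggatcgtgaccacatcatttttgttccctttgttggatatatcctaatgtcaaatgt

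Icosl held 2 kB-type matches, starting at -111 on the minus strand and -71 on the plus strand from the start site, and Cd80 also held 2. Il12b held 2 PU.1-type matches, at -219 and -143, and no kB-type match. Pdcd1lg2 held 1 palindromic kB-type match at -244, read on both strands, and 1 PU.1-type match at -82. Cd274 held neither, nor the IRF motif (GAAA, any 2 bases, GAAA). Of 32851 promoters of this length, 50.8% held a kB-type match, 28.3% a PU.1-type match and 3.44% the IRF motif, so the matches describe the letters in these windows only.

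The other genes of the pathway in migratory DCs were counted from fixed lists. Of all 11116 genes tested in this comparison, 2046 were higher and 1524 were lower. Of 19 NF-kB pathway genes, which carry signals of CD40 and of Toll-like receptors, 15 were higher than in the remaining dendritic classes and 0 were lower, with a median log2 fold change of 1.5. Relb, the partner of the alternative pathway, was higher by 3.54 (SE 0.16), Traf1 by 2.30, Tnfaip3 by 2.22 and Birc3 by 1.78. Il15ra, the chain that presents IL-15, was higher by 4.19 (SE 0.30, edgeR adjusted p = 4.17e-14), beside the 3.59 of Il15. Of 15 other costimulatory and checkpoint ligands tested, 7 were higher and 5 lower; Pvr, the ligand of CD226 and TIGIT, was higher by 3.58, Slamf1 by 6.61 and the adhesion ligand Icam1 by 1.79. Of 7 other cytokines 1 was higher and 2 were lower, with Ebi3 at 0.69, Tgfb1 at -2.0 and Il1b at -1.19, and of 11 receptor genes 3 were higher and 2 lower.

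In the other lineage comparisons the same lists moved less evenly. Of all 11116 genes tested, 1483 were higher and 1640 lower in dendritic than in macrophage classes. In B cell-like cells 1544 were higher and 1335 lower than in dendritic classes, and 2161 higher and 1905 lower than in macrophage classes. Between dendritic and macrophage classes 8 NF-kB genes were higher and 1 lower, with Traf1 at 1.86 and Rel at 1.36, and 4 ligands were higher and 3 lower, with Btla at 3.46 and Lgals9, which encodes galectin-9, at -2.02. B cell-like cells had 0 NF-kB genes higher and 8 lower than dendritic cells and 4 ligands higher and 5 lower, with Slamf1 at 4.78 and Sema4a at -3.25. Against macrophages they had 1 NF-kB gene higher and 5 lower and 2 ligands higher and 4 lower.

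Among macrophages, the inflammatory class was compared with the C1q class in the immunized mice, where both had libraries. Cd274 was higher by 1.39 (SE 0.32, edgeR adjusted p = 0.00579) and Cd40 by 1.03 (SE 0.26, adjusted p = 0.0116), in both mice. Of all genes 4.97% were called, and 2 of these 10. Cd86 (0.48, 95% interval -0.12 to 1.07), Pdcd1lg2 (0.62, -0.15 to 1.38), Il15 (0.47, -0.21 to 1.15) and the others did not pass. Of 7 other cytokines 5 were higher, among them Il12a at 3.83, Tnf at 2.46, Il27 at 1.64 and Ebi3 at 1.04, and Il15ra was higher by 1.34. DESeq2 called neither gene (Cd274 adjusted p = 0.103, Cd40 adjusted p = 0.0752), and the class rested on 16 cells in immunized mouse 1.

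Medullary sinus macrophages, which line the medullary cords and filter lymph, held less of several of the genes than C1q macrophages. Cd40 was lower by a log2 fold change of -1.91 (SE 0.32), Cd83 by -2.62 (SE 0.75) and Cd274 by -1.38 (SE 0.37), with edgeR adjusted p-values of 4.87e-05, 0.0117 and 0.00735. Cd86 (0.40, 95% interval -0.21 to 1.02) and Il15 (0.40, -0.43 to 1.24) did not pass. The 3 called genes stand beside 18.7% of all genes, of which the median was -0.198. Traf1 (-1.94) and Nfkbiz (-1.95) were among 6 NF-kB genes lower and 0 higher, and Icam1 (-1.63) and Vsir (-1.84) among 5 ligands lower and 0 higher. The part played by the low depth of these cells was not tested, and Cd83 rested on 8 UMIs in the class.

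Il12b encodes the chain shared by interleukin 12 and interleukin 23. Its 196 UMIs lay in 54 cells, of which 19 were migratory DCs with 63 UMIs, 14 were C1q macrophages with 67 UMIs, 7 were inflammatory macrophages with 13 UMIs and 10 were cells in no gate with 47 UMIs. In migratory DCs 1 cell in each unimmunized mouse had 2 UMIs, and 9 and 8 cells of the immunized mice had 26 and 33 UMIs. The levels of the class were 2.67 and 18.8 CPM in unimmunized and 21.4 and 41.5 CPM in immunized mice, a gap that did not pass (edgeR adjusted p = 0.52) and of which the 18.8 CPM came from 2 UMIs in 10 cells. By capture the levels were 33.8 and 8.41 CPM in immunized mouse 1 and 55.1 and 26.5 CPM in immunized mouse 2, against 4.52 and 0 CPM in unimmunized mouse 1.

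In C1q macrophages Il12b was found in the immunized mice only, with 4 cells and 8 UMIs in mouse 1 and 10 cells and 59 UMIs in mouse 2, and 1 cell held 23 of them. The levels were 2.01 and 4.10 CPM against 0 and 0, which is at least 1.08-fold higher over the groups (67 UMIs, 3.65 CPM, against a floor of 3.369 CPM), and the test did not pass (edgeR adjusted p = 0.715). The dendritic markers Ccr7 and Fscn1 were found in 6 and 5 of these 14 cells, against 3.29% and 8.68% of all C1q macrophages, and 1 of the 14 had a high doublet score. Whether the Il12b of these cells came from the macrophages or from dendritic cell RNA in the same droplet was not tested. The gate also kept cells with UMIs of C1qa, C1qb and C1qc out of the dendritic classes, and the part of this rule was not tested.

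Il10, the inhibitory cytokine, was rarer still. It had 35 UMIs in 23 cells, with 8 UMIs in 8 medullary sinus macrophages, 8 in 7 C1q macrophages and 12 in 2 T cells, of which 1 cell of immunized mouse 1 held 10. Dendritic classes held 0 of 9607270 UMIs, a floor of 0.3123 CPM, against 19 of 27832740 UMIs in macrophages (0.6826 CPM), which is at least 2.19-fold higher. B cell-like cells also held 0 UMIs, but their floor of 1.376 CPM was above the level of the macrophages. In both macrophage classes the unimmunized mice had the higher values, at 9.85 and 24.9 against 2.58 and 0 CPM in medullary sinus and 5.12 and 3.28 against 1.01 and 0 CPM in C1q macrophages. They rested on 6, 1, 1 and 0 UMIs in medullary sinus and 3, 1, 4 and 0 UMIs in C1q macrophages. In the medullary sinus library of immunized mouse 2 a single UMI is 38.9 CPM, so its 0 cannot be placed below the unimmunized values.

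**Figure D4:**
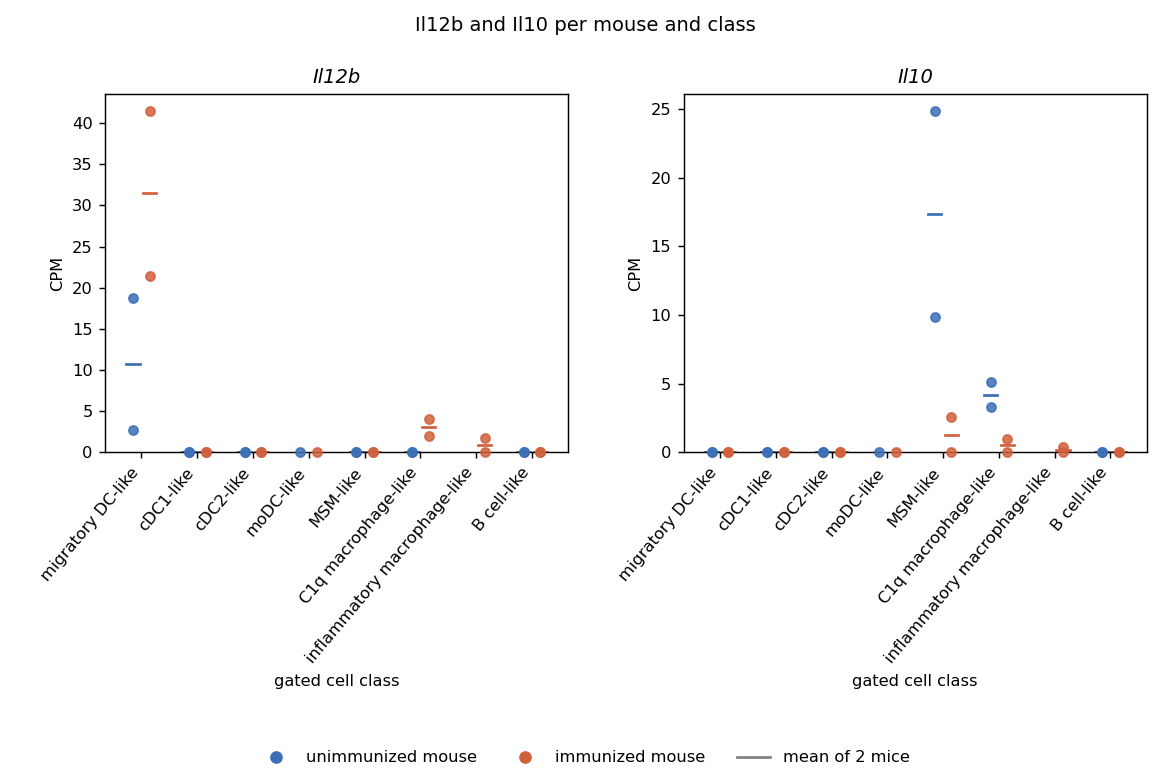
Level (CPM, linear axis from 0) of Il12b (left) and Il10 (right) in the dendritic, macrophage and B cell-like classes. Each point is 1 mouse, blue unimmunized and orange immunized, and a short line is the mean of 2 mice. Il12b reached 41.5 CPM in migratory DC-like cells of an immunized mouse and Il10 24.9 CPM in MSM-like cells of an unimmunized mouse, a library in which 1 UMI of Il10 was counted.

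Immunized and unimmunized mice were compared within each lineage, to ask whether these instructions to T cells changed 9 days after immunization. The macrophage comparison held medullary sinus and C1q macrophages only, since inflammatory macrophages had no library from unimmunized mice. With edgeR, 0 of the 10 genes passed in the dendritic classes, in these macrophage classes, in B cell-like cells or in the difference between the dendritic and macrophage effects. The shares of all genes called were 0.072%, 0.135%, 0.009% and 0%. At an unadjusted p under 0.05, edgeR gave 1, 1, 0 and 0 of the 10 genes, and DESeq2 called 0 and gave 1, 0, 0 and 0. In dendritic cells Cd40 had the smallest p, with a log2 fold change of 0.53 (95% interval 0.13 to 0.93, edgeR adjusted p = 0.277), and in macrophages Il10, which was lower (adjusted p = 0.362).

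The intervals rest on the spread over mouse and class libraries, fitted without a term for the mouse. Classes of 1 mouse counted as separate samples, so the intervals do not measure the spread of 2 mice against 2. In dendritic cells they were -0.19 to 0.99 for Cd274, -0.09 to 0.85 for Cd86, -0.46 to 0.70 for Icosl, -0.57 to 0.63 for Cd80 and -0.78 to 0.86 for Cd83. For the mean over the dendritic classes, the upper ends lay below a 2-fold rise or at its edge. This does not exclude a 2-fold rise between mice, since the spread of 2 mice against 2 was not measured. The interval of Cd86 in migratory DCs alone, given below, reached beyond a 2-fold rise. In macrophages the intervals of Cd40 (-0.75 to 0.66), Cd86 (-0.34 to 0.89) and Cd274 (-0.54 to 1.04) were narrower than those of Cd83 (-2.56 to 1.17) and Pdcd1lg2 (-1.70 to 1.15). In B cell-like cells Cd274 ranged from -0.36 to 2.64 and Cd80 from -0.91 to 2.67. In counts simulated for the same libraries, 49% of genes changed 2-fold and 96% of those changed 4-fold between conditions in the dendritic classes were called. The simulation gave every gene the same dispersion, no mouse effect and 1 profile for all dendritic classes. It changed only genes well counted in dendritic libraries, so these rates do not cover Il12b and Il10.

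**Figure D5:**
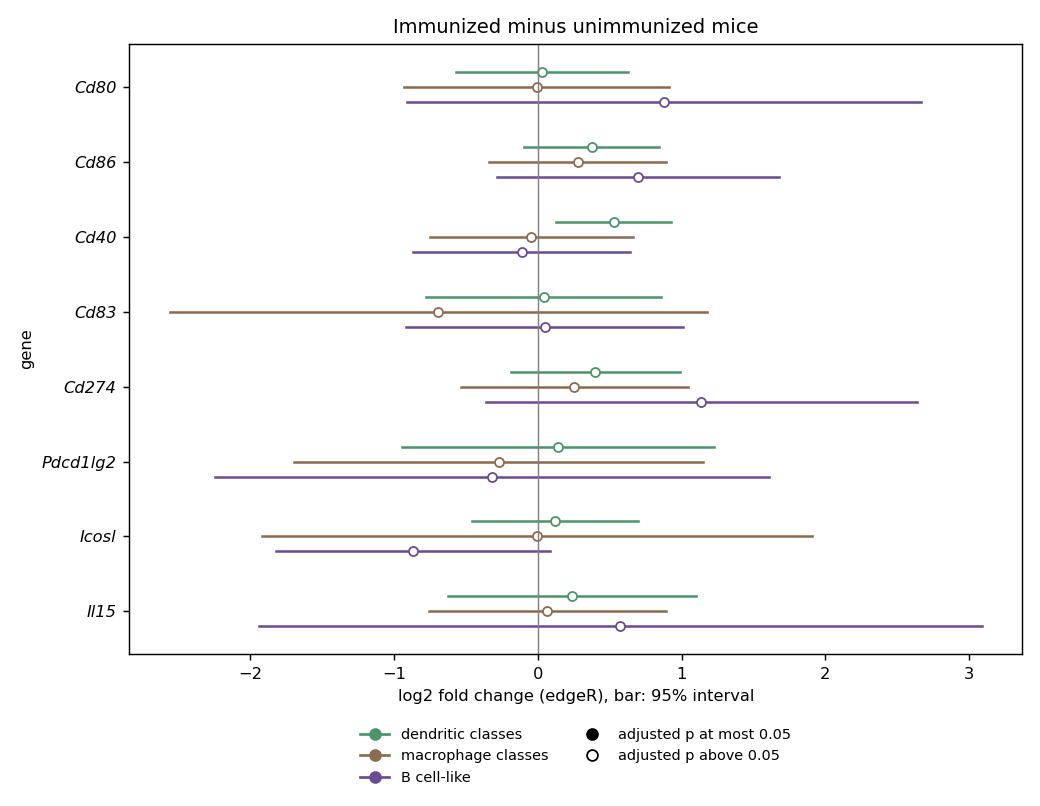
Log2 fold changes of 8 of the 10 genes for immunized minus unimmunized mice (x axis, edgeR) in the dendritic, macrophage and B cell-like classes, with 95% intervals as bars. The macrophage classes here are MSM-like and C1q macrophage-like only. No point is filled, since 0 genes passed an adjusted p of 0.05, and the interval of Cd40 in dendritic cells (0.13 to 0.93) lies above 0.

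Single classes gave the same count, with 0 of 10 genes called in each. The shares of all genes called were 0.018% in migratory DCs, 0% in cDC1-like cells, 0.018% in cDC2-like cells, 0% in medullary sinus macrophages and 0.396% in C1q macrophages. They were 0.009% in interferon-high, 0.999% in classical and 0.918% in nonclassical monocytes, 0.306% in T cells and 0% in NK cells. Cd86 in migratory DCs came closest to the threshold among the antigen-presenting classes. Its levels of 42.6 and 75.0 CPM in unimmunized and 142.4 and 104.4 CPM in immunized mice did not overlap, and the log2 fold change was 1.4 (95% interval 0.60 to 2.20, edgeR adjusted p = 0.279). It passed without immunized mouse 2 (1.55, adjusted p = 0.005), with Leiden clusters in place of gates (1.53, adjusted p = 0.0151) and without the filter on low counts (1.4, adjusted p = 0.0178). The immunized mice also had the deeper cells, and the part of depth in these values was not tested. Il10 in T cells (edgeR adjusted p = 0.112) rested on 12 UMIs in 2 cells of the immunized mice and passed with Leiden clusters (adjusted p = 0.0102).

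Cd274 and Pdcd1lg2 were also higher in both immunized mice than in both unimmunized mice in migratory DCs, by 0.74 (95% interval -0.05 to 1.53, edgeR adjusted p = 0.711) and 1.02 (95% interval -0.28 to 2.33, adjusted p = 0.798). Cd83 was lower in both, by -0.42 (95% interval -1.18 to 0.34, adjusted p = 0.885), and Cd40, Icosl and Il15 overlapped between the conditions. Cd80 (21.3 and 0 CPM unimmunized, 26.3 and 25.2 CPM immunized, the 0 from a library of 10 cells) and Il12b did not overlap either. The share of all genes that separate the mice in this way was not counted. In C1q macrophages the blocked fit called Il10 lower after immunization (limma voom adjusted p = 0.0169), on 8 UMIs. The unblocked edgeR fit gave an adjusted p of 0.511, so the 2 values differ in method as well as in the block. Of the genes in the other lists, Il2rb, a receptor chain for interleukins 2 and 15, was lower in macrophages of the immunized mice (-3.77, SE 0.74, edgeR adjusted p = 0.0136), and no other listed gene passed in the 3 lineages. In single classes Il2rb was also lower in C1q macrophages (-3.95), classical monocytes (-5.32) and nonclassical monocytes (-3.82). Il2rb is a gene of T and NK cells, which numbered 866 and 200 of 2828 cells in unimmunized mouse 1 and 114 and 39 of 537 in unimmunized mouse 2, against 208 and 126 of 4052 and 100 and 33 of 4722 in the immunized mice, and the part of their RNA in this result was not tested.

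The share of cells with a transcript, averaged over mice, followed the levels for several genes. The order for Cd40 differed, but rested in part on a library of 16 cells. To compare classes of unequal depth, each cell was thinned to 1000 UMIs, which left out 4 medullary sinus and 2 C1q macrophages. Averaged over mice, 35.2% of migratory DCs then held a UMI of Cd83, 20.6% of Cd40, 15% of Il15 and 14.2% of Icosl, against 85.7%, 71.9%, 64.3% and 66.2% before thinning at a median of 10227 UMIs. T cells, which should hold little of these transcripts, gave 0.942%, 0.572%, 0.351% and 0.389% at 1000 UMIs, from a median of 6247. Inflammatory macrophages gave 27.7% for Cd40, above the 20.6% of migratory DCs, although migratory DCs held the higher level. The mean of the inflammatory class gave equal weight to 16 cells of immunized mouse 1 and 447 cells of immunized mouse 2. For Cd274 inflammatory macrophages gave 21.0% and T cells 3.19%. Cd86 was found in 18.4% of cDC1-like cells and 10.1% of medullary sinus macrophages against 1.68% of T cells. Cd80 was too sparse for this depth, with 5 of 261 migratory DCs and 7 of 1288 T cells holding a UMI, and at full depth it was in 40 of the 261 and 30 of the 1288.

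At equal depth migratory DCs held more of the 10 genes per cell than the macrophage and B cell-like classes, though few held 3 or more. At 1000 UMIs a migratory DC held a mean of 0.864 to 1.21 of the 10 genes per mouse, against 0.649 and 0.688 in inflammatory macrophages, 0.253 to 0.464 in C1q macrophages, 0.267 to 0.456 in B cell-like cells and 0.15 to 0.254 in medullary sinus macrophages. At that depth 1.59% to 12.3% of migratory DCs held 3 or more. At full depth 3 or more were held by 70.0% to 92.1% of migratory DCs, 81.2% and 84.6% of inflammatory macrophages and 25.6% to 65.7% of C1q macrophages. Of the 19 migratory DCs with Il12b, all held Cd83 (85.5% of the 242 without Il12b), 73.7% held Cd274 (52.9%) and 42.1% held Pdcd1lg2 (17.8%), at median depths of 11742 and 10108 UMIs. Every other member found in the class also had a higher share in cells with Il12b, such as Cd86 (63.2% against 36.8%). These shares pool the mice without thinning. The 19 cells were 1 and 1 from unimmunized and 9 and 8 from immunized mice, and the parts of mouse, condition and depth were not tested.

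Migratory DCs with and without Cd274 were set side by side at 5000 UMIs per cell, a depth chosen after the data were seen. In the immunized mice the share with Cd86 was higher in cells with Cd274 (47.7% against 28.4% in immunized mouse 1, 36.0% against 18.4% in immunized mouse 2), as was that with Cd40 (65.9% against 43.2%, 80.0% against 47.4%). Cd80 (22.7% against 5.41%, 16.0% against 10.5%) and Pdcd1lg2 (20.5% against 2.70%, 16.0% against 7.89%) went the same way. Icosl (54.5% against 71.6%, 32.0% against 44.7%) and Il15 (52.3% against 58.1%, 32.0% against 57.9%) went the other way. Unimmunized mouse 1 had 20 cells with Cd274 and 46 without. Cd80 (10.0% against 0%) went the same way there, and Il15 was near equal (35.0% against 34.8%). Cd86 (5% against 15.2%, 1 and 7 cells), Pdcd1lg2 (0% against 6.52%, 0 and 3 cells), Cd40 (55.0% against 65.2%) and Icosl (45.0% against 39.1%) had the opposite order. Before thinning, Cd86 (29.7% against 13.8%) and Pdcd1lg2 (21.6% against 10.3%) in this mouse had the order of the immunized mice, while Cd40 (73.0% against 79.3%) did not. The order in this mouse therefore depended on depth for Cd86 and Pdcd1lg2. Unimmunized mouse 2 had 8 cells at 5000 UMIs. These shares describe cells of single mice and carry no test.

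Across the 49 libraries, which share mice and depth, the genes whose log2 CPM followed each member most closely are a description only. Cd274 went with Clcn7 (Pearson r = 0.912), Csf2rb (0.91) and Icam1 (0.909), and Cd40 with Pgap2 (0.88), Ccdc50 (0.862) and Ifi30 (0.833). Cd83 went with Trim7 (0.838), Cyp51 (0.826) and H2-Eb2 (0.811), and Icosl with Swap70 (0.784), H2-DMb2 (0.778) and again Trim7 (0.76). The closest to Cd80 was Ltbr (0.821), to Cd86 Atpif1 (0.83), to Il15 Sqstm1 (0.779) and to Pdcd1lg2 Stk40 (0.651), the weakest of the 10 leading values. Il12b (Tnnt2, 0.891) and Il10 (Shisa2, 0.796) were matched by genes that are as sparse.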

How the data were processed

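Gene, hashtag and antibody counts were deposited by the authors as raw counts for 2 captures. Per the labels and methods, genes were counted as UMIs with Cell Ranger 4.0.0 on mm10, and tags with CITE-seq-count, whose version was not given in the sources used here. Cells were assigned to a mouse where 1 hashtag had at least 10 counts and 80% of the hashtag counts, and kept with at most 25% mitochondrial UMIs. Cells marked by 2 hashtags failed this rule. Further doublets were kept in the main result and removed with Scrublet (907 cells, scanpy 1.11.5) as an alternative. HTODemux, another alternative, left out most of the cells that the hashtag rule gave to immunized mouse 2.

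Classes were gated by lists of marker genes that held none of the 10 genes. The rule that combined the markers was set after the data were seen, and the 10 genes, the other gene lists and the tests were chosen with earlier results of these data known. A class needed an anchor gene, at least 3 markers and a margin of 0.1 in the share of its list. Cells with UMIs of C1qa, C1qb and C1qc together were not gated as dendritic. Counts were summed per mouse and class over at least 10 cells. They were filtered with filterByExpr, scaled by TMM and tested with edgeR 4.0.16 (R 4.3.3) with class by condition as groups over all classes, with Benjamini-Hochberg adjustment over 11116 genes. The standard error is the log2 fold change over the square root of F. For a single value, 2 mice against 2 cannot give an exact permutation p under 0.333. All 10 genes are named, with at most 4 called genes of smallest adjusted p from each other list and the 3 genes of highest correlation with each.

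Libraries of the same mouse come from the same animal, so a fit with the mouse as a replicate block was run beside the unblocked one. For comparisons of classes and for the interaction it was edgeR with a term for the mouse. For immunization within a lineage or class it was limma 3.58.1 (voom) with the mouse as block. Between libraries of the same mouse, the median correlation of deviations from the mean of class and condition was 0.0499 (222 pairs). With 2 mice per group the deviations are mirror images. The -0.0499 for the other mouse of the condition therefore follows from the first value and is no second measurement. On simulated counts for migratory against other dendritic classes, 39% of 2-fold and 90% of 4-fold changes were called, among 100 changed genes of each size of 11116, and 8.51% of calls were false. Library depth is given as UMIs, and floors of 3 counts cover counting error only. Alternatives were DESeq2 1.42.0, its size factors, no filter, other cell minimums (5 and 20), at most 10% mitochondrial UMIs, HTODemux (Seurat 5.3.0), Leiden clusters (resolution 1.5), a stricter gate, each capture alone, leaving out the moDC-like class and leaving out each mouse. Thinning to 5000 UMIs was added after the data were seen. Promoters are from RefSeq (GRCm38.p6) and gene positions from GENCODE.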

Additional observations from a re-analysis of the deposited data

Results flagged for a closer look

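Cells that met no gate entered no comparison, and 4 of the 10 genes, Cd40, Cd274, Cd86 and Il15, were higher there in both immunized mice than in both unimmunized mice. They numbered 740 and 197 cells in the unimmunized and 1186 and 1368 cells in the immunized mice. The differences were not tested, and the share of all genes that separate the mice in this way was not counted. With 2 mice against 2, no exact permutation p of a single gene can fall under 0.333. Cd83 went the other way, with both immunized mice (27.8 and 23.0 CPM) below both unimmunized mice (38.9 and 29.2 CPM). Which cell types make up the ungated cells of each condition was not tested. Cd40 was 63.0 and 100.7 CPM in the unimmunized and 104.3 and 129.4 CPM in the immunized mice (mean of the immunized 116.8 CPM). Cd274 was 67.0 and 64.1 against 80.0 and 127.9 CPM (mean 103.9 CPM), and Cd86 was 40.6 and 31.7 against 53.4 and 68.0 CPM (mean 60.7 CPM). Il15 was 17.7 and 12.2 against 18.9 and 21.1 CPM (mean 20.01 CPM), a gap smaller than those of the other genes. Il12b was 0 in both unimmunized mice, where a count of 0 allowed up to 0.716 and 2.44 CPM, and 2.88 and 1.18 CPM in the immunized mice (mean 2.03 CPM), from 28 UMIs in 4 cells and 19 UMIs in 6 cells, so that immunized mouse 2 lay below the limit of unimmunized mouse 2. Il10, with 2 UMIs and 1 UMI in the immunized and 0 in the unimmunized mice, was under these limits.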

How the results depend on the processing

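Of 1680 values of single genes under alternatives, 1598 kept their side of the threshold, of which 155 were uncalled values that changed sign, 44 lost a call, 36 gained one and 2 reversed. Leaving out a mouse leaves some groups with a lone sample, which is then assumed to vary like the others. Genes called numbered 4 for dendritic against macrophage classes, and 2 with the stricter gate, 2 in capture 1 only and 3 to 3 with a mouse left out. For B cells they were 4 against macrophages (2 to 4 with a mouse left out) and 4 against dendritic cells (1 in capture 1, 2 in capture 2, 2 to 6). Migratory DCs gave 6 (5 to 7). Inflammatory macrophages gave 2 (0 with DESeq2, 1 with Leiden clusters, 1 in capture 1, 1 to 2; Cd40 adjusted p = 0.07 without immunized mouse 1). Medullary sinus macrophages gave 3 (7 with Leiden clusters, 1 with the stricter gate, 1 in capture 2, 1 to 3).

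Without immunized mouse 1, Cd274 passed after immunization in dendritic cells (0.85, adjusted p = 0.0197) and in B cells (2.10, adjusted p = 0.046), so those counts of 0 ranged from 0 to 1, while macrophages and the interaction stayed at 0 to 0. Single classes, at 0, gave 1 with the replicate block, 3 without the filter, 2 with Leiden clusters and 0 to 7 with a mouse left out (7 without immunized mouse 1, 2 without immunized mouse 2). Cd274 in B cells against macrophages reversed to 0.67 without unimmunized mouse 1 and to 0.30 without immunized mouse 1, both uncalled (range with a mouse left out -2.10 to 0.67), where the lone remaining MSM-like library was at 0. With the replicate block, which pairs libraries of the same mouse, 4, 4, 5, 7, 2 and 3 genes were called in the 6 comparisons of classes and 0 in the 4 of immunization by lineage. DC against macrophage Cd40 was 0.02 with HTODemux, which left out most cells of immunized mouse 2. The causes were not tested. Medullary sinus macrophages had few UMIs per cell, and Il12b and Il10 few counts in all.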
